A study of Mus musculus with 48 samples.

Results

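The comparison of BuOE with saline in mice that stayed on the ground was read in 3 brain regions. The CA (labelled Cornu Ammonis 1), the DG (dentate gyrus) and the CT (cortex) of 3 GC-BuOE mice, all on slide GC_TX_2, were set against the same regions of 3 GC-SAL mice, all on slide GC_SAL_2. These were 18 of the 48 areas of illumination (AOIs) of the series and 6 of its 12 mice, and every gene of the tables except the negative-control probe was a member. No gene passed limma's test in any region, and none passed it when the 3 regions of each mouse were averaged, while edgeR called 6 genes in CA, 5 in DG and 2 over the 3 regions, described below. The antioxidant enzyme genes were among those that did not pass, and in CA and DG the widest differences belonged to genes that were high in 1 AOI.

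The mice were male C57BL/6, 10 weeks of age at the launch of the flight groups, and lived for 35 days in flight hardware cages on Earth at 26 to 28 °C on the flight diet, with a schedule that ran 3 days behind the flight. GC-BuOE mice received BuOE, the compound labelled MnTnBuOE-2-PyP5+, subcutaneously at 1 mg/kg in 0.2 mL, first 7 days before launch and weekly afterwards, and GC-SAL mice received saline. The labels name no allele or transgene, and both groups went through the same anesthesia and euthanasia. The AOIs were chosen on sections stained for GFAP, Iba1 and nuclei. Each mouse gave 1 AOI per region, so the 3 AOIs of a mouse are not independent, and the mouse is the replicate. Because all sections of a group shared a slide, slide and treatment cannot be told apart.

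Digital spatial profiling hybridizes tagged probes to transcripts in a tissue section, and UV light releases the tags from a chosen area for counting. Superoxide dismutases turn superoxide into hydrogen peroxide, which catalase and the peroxidases then remove, and BuOE, a porphyrin that carries manganese, can take over the first of these reactions. Cells raise the genes of the glutathione and thioredoxin systems through the transcription factor NRF2 when oxidants accumulate. The CA1 pyramidal cells and the granule cells of the dentate gyrus are the principal neurons of 2 steps of the hippocampal circuit, and the cortex holds layered excitatory neurons, interneurons and glia.

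The region labels were checked against their defining markers. They separated the regions in part. In DG, the granule cell gene Prox1, which encodes a transcription factor that maintains granule cell identity, lay between 99.4 and 114 Q3-normalized counts in the 6 AOIs, against 23.7 to 38.1 in CA and 17.7 to 35.5 in CT. In CA, the CA1 gene Fibcd1 lay between 55.4 and 107, against 27 to 42.2 in DG and 13.8 to 25.5 in CT. In CT, the upper-layer gene Lamp5 lay between 59.4 and 83.5, against 24.9 to 40 in CA and 23.4 to 33.5 in DG. These ranges stood apart, as did those of C1ql2 in DG and of Wfs1 and Pou3f1 in CA. Other markers did not separate: the granule cell gene Dsp had 22.2 to 47.03 in DG and 13.3 to 35.7 in CA, and of the upper-layer genes Cux2 had 33.7 to 52.6 in CT and 20.5 to 48.3 in DG, and Rorb 22.7 to 41.2 in CT and 23.1 to 31.1 in CA.

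Depth differed between the AOIs, and its part in what could be detected was not tested. The 18 AOIs held 322629 to 1124863 deduplicated counts, and 1 count was worth 0.635 to 2.11 Q3-normalized counts, so the median gene of an AOI rested on 14 to 31 counts in CA and DG and on 24 to 43 in CT. The negative-control probe read 17.7 to 20.9 in CA, 9.24 to 13.5 in DG and 13.6 to 16.04 in CT, with overlapping ranges in the 2 groups of each region. In CA, the share of genes above 1.5 times the negative control of their AOI was 48.4% to 60.0% in GC-BuOE and 59.6% to 67.8% in GC-SAL, and its part in the differences in CA was not tested. The corresponding shares were 88.1% to 97.1% in DG and 77.1% to 80.7% in CT. The AOI of GC-SAL mouse 1 in CT held 140 nuclei, against 470 to 578 in the other CT AOIs, and the AOI of GC-BuOE mouse 3 in DG had a sequencing saturation of 81.7%, against at least 93.5% in the others.

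The test was limma's, fitted to log2(Q3-normalized count + 1) of the 12 AOIs of a region (4 groups of 3 mice), and a gene was called at a Benjamini-Hochberg adjusted p below 0.05 and a difference beyond 1.5-fold. In CA, 0 of 15782 genes were called (0%), and the smallest adjusted p was 0.328. At an unadjusted p below 0.05, 430 genes were higher in GC-BuOE (2.72%) and 454 were lower (2.88%). The quasi-likelihood test of edgeR on raw counts called 6 genes in CA with 736 at an unadjusted p below 0.05, and DESeq2 called 0 with 177. In DG, limma called 0 genes (0%), with 353 higher (2.24%) and 469 lower (2.97%) at an unadjusted p below 0.05. edgeR called 5 genes in DG with 760 at that p, and DESeq2 called 0 with 231. In CT, limma called 0 genes (0%), with 280 higher (1.77%) and 316 lower (2%) at an unadjusted p below 0.05. edgeR called 0 genes in CT with 569 at that p, and DESeq2 called 0 with 153. Each p measures the spread between mice whose sections lay on 1 slide per group.

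**Figure D1:**
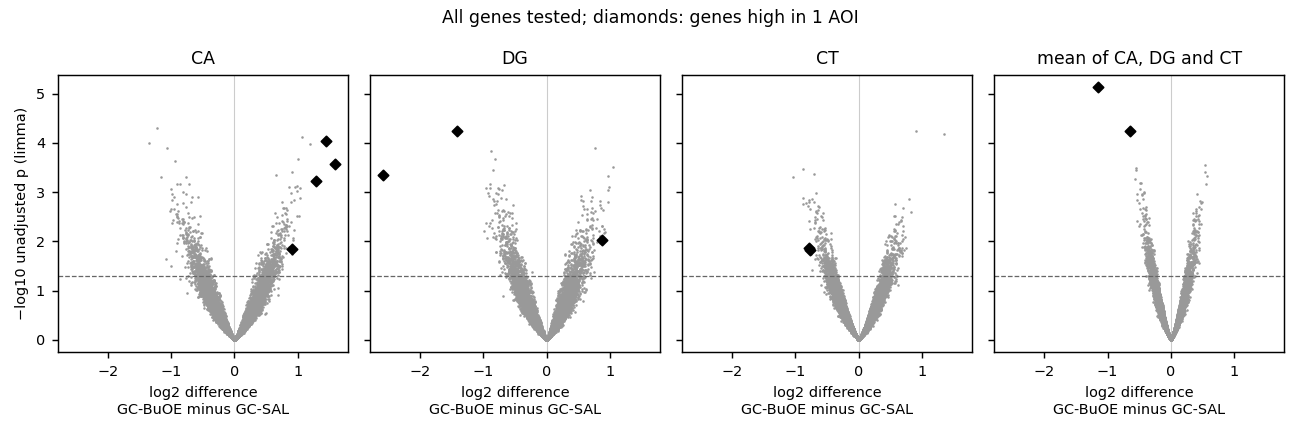
The 4 panels plot, for every gene tested, the log2 difference of GC-BuOE minus GC-SAL (x axis) against −log10 of the unadjusted limma p (y axis) in CA, DG, CT and the mean of the 3 regions of each mouse, with a dashed line at the unadjusted threshold. Diamonds mark the genes high in 1 AOI, among them Pik3r4 in DG at a log2 difference of -2.59.

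The values of the 3 GC-BuOE mice lay wholly above those of the 3 GC-SAL mice for 716 genes in CA (4.54%), 645 in DG (4.09%) and 618 in CT (3.92%). They lay wholly below for 791 genes in CA (5.01%), 895 in DG (5.67%) and 676 in CT (4.28%). The median log2 difference of all genes was -0.0089 in CA, -0.0179 in DG and -0.0035 in CT. The 95% interval of the difference lay wholly within 1.5-fold in either direction for 4286 genes in CA (27.2%), 6902 in DG (43.7%) and 8943 in CT (56.7%). Within 2-fold it lay for 90.6% of the genes in CA, 95.1% in DG and 98.2% in CT. Differences beyond 2-fold in the Q3-normalized value were therefore outside the interval for most genes. Differences near 1.5-fold were not outside the interval for many of them, with 3 mice per group at this depth. These values still hold the background, so for genes near the negative control the interval does not bound the fold of the transcript itself. The interval was wider for genes near the negative control: in CA its median half-width was 1.48-fold for the 6787 genes under 1.5 times the negative control and 1.28-fold for the 1316 genes over 3 times it.

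Pairs of mice were also compared on their raw counts, as the chi-square per gene, which is 1 where 2 AOIs differ by counting noise alone. Pairs within a group gave 1.11 to 1.19 in CA, 1.09 to 1.44 in DG and 1.17 to 2.29 in CT. Pairs of a GC-BuOE with a GC-SAL mouse gave 1.06 to 1.16 in CA, 1.07 to 1.33 in DG and 1.10 to 1.67 in CT. The value was above 1 for all pairs, but it is a mean over genes. Single genes with 1 AOI far above the rest add to it, so it does not describe the typical gene. The ranges of the 2 kinds of pair overlapped in each region, and the highest value came from GC-SAL mice 2 and 3 in CT.

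The antioxidant enzymes were described first, since BuOE takes over the reaction of one of them. Sod1, the cytosolic copper-zinc superoxide dismutase, had 84.3, 74.7 and 76.8 Q3-normalized counts in CA of GC-BuOE mice 1, 2 and 3, and 63.1, 91.5 and 83.0 in GC-SAL mice 1, 2 and 3. In DG the values of Sod1 were 91.2, 85.0 and 91.2 with BuOE and 82.8, 100.5 and 73.0 with saline. In CT they were 114, 127 and 116 with BuOE and 116, 151 and 96.8 with saline. The groups overlapped in each region, and the log2 difference of Sod1 over the mean of the 3 regions was 0.023 (95% interval -0.19 to 0.24, limma).

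Sod2, the manganese superoxide dismutase of mitochondria, had 44.2, 80.0 and 43.3 with BuOE and 60.0, 78.1 and 53.4 with saline in CA. In DG, Sod2 had 60.0, 56.3 and 72.3 with BuOE and 55.2, 62.4 and 66.0 with saline. In CT it had 88.0, 65.4 and 75.4 with BuOE and 81.3, 98.5 and 84.7 with saline. The groups overlapped in all of these, and the log2 difference of Sod2 over the mean of the 3 regions was -0.14 (95% interval -0.36 to 0.09). Sod3, the extracellular form, was not analysed here.

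Cat, which encodes catalase, had 33.7, 30.7 and 26.0 with BuOE and 27.7, 36.2 and 28.2 with saline in CA, and its log2 difference over the 3 regions was -0.0075 (95% interval -0.28 to 0.27). Gpx1, a glutathione peroxidase, was the one of these genes whose groups did not overlap upwards in a region: in DG it had 42.2, 32.5 and 31.1 with BuOE and 22.1, 27.9 and 30.0 with saline. Its log2 difference in DG was 0.39 (95% interval -0.03 to 0.81, adjusted p = 0.946), but it was -0.28 in CA and -0.12 in CT. Nqo1, a quinone reductase and NRF2 target, did not overlap downwards in DG, with 27.8, 32.5 and 28.9 with BuOE and 37.3, 33.5 and 41.0 with saline. Its log2 difference was -0.31 in DG (adjusted p = 0.957), -0.14 in CA and -0.012 in CT. Hmox1, heme oxygenase 1, lay close to the negative control, at 1.35 times it in CA, 2.07 times in DG and 1.37 times in CT, and its log2 differences were 0.07, 0.26 and -0.37. None of the 6 genes passed the test in a region, and the 95% interval of each over the mean of the 3 regions lay within 1.5-fold in either direction. Those intervals are of values that still hold the background, to which Hmox1 lay close, so they do not bound the fold of its transcript.

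**Figure D2:**
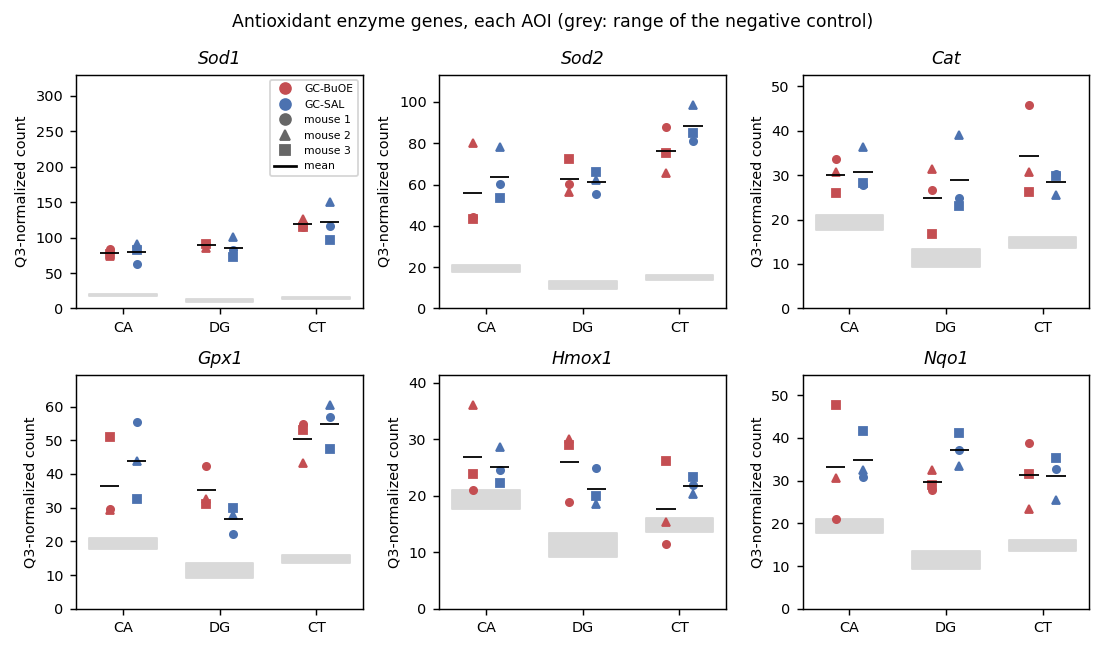
Each panel plots 1 antioxidant gene, with the Q3-normalized count (y axis) of every AOI in CA, DG and CT (x axis), GC-BuOE in red and GC-SAL in blue, a symbol for each mouse and a bar at the mean of a group. The grey boxes span the negative control of the region, and the groups overlap except for Gpx1 and Nqo1 in DG.

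The rest of the redox genes were read as lists, by their counts and medians beside those of all genes. Of 506 measured genes in all 36 lists, 17 were higher (3.36%) and 13 lower (2.57%) in CA at an unadjusted p below 0.05, against 2.72% and 2.88% of all genes. In DG 16 were higher (3.16%) and 13 lower (2.57%), against 2.24% and 2.97%, and in CT 9 were higher (1.78%) and 11 lower (2.17%), against 1.77% and 2%. These shares lay near those of all genes, 0 list members passed the adjusted test, and members of lists are named below as values only.

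For superoxide dismutases, catalase and peroxidases, 13 of 16 genes were measured, and their median log2 difference was 0.09 in CA, 0.03 in DG and 0.0087 in CT. Prdx3, the mitochondrial peroxiredoxin, had the lowest p of them over the mean of the 3 regions, with a log2 difference of -0.26 (adjusted p = 1). Prdx5, another peroxiredoxin, was the one member under the unadjusted threshold in a region. Its log2 difference in CA was 0.39 (adjusted p = 0.873 by limma), and its differences in DG and CT were -0.059 and -0.15. The NRF2 targets and the glutathione and thioredoxin systems had medians of -0.12 in CA, 0.04 in DG and -0.0041 in CT over 24 of 26 genes. Their summed level was wholly higher with BuOE in CT, at 1583 to 1775 against 1403 to 1549, and overlapped in CA and DG. Gstp1, a glutathione transferase, had 59.0, 58.7 and 79.0 with BuOE and 89.3, 112 and 90.4 with saline in CA. The groups did not overlap there, and the log2 difference was -0.57 (adjusted p = 0.659). In CT the difference of Gstp1 was 0.24, in the opposite direction. Srxn1, which repairs oxidized peroxiredoxins and whose groups overlapped in each region, had a log2 difference of 0.28 over the mean of the 3 regions (unadjusted p = 0.0288, adjusted p = 1), with 0.18 in CA, 0.29 in DG and 0.37 in CT.

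Prdx5 and Gstp1, like Nox4 below, were named after their values were seen. Among the 8 measured genes of the superoxide-producing oxidases, Ncf4, a cytosolic oxidase subunit, had the lowest p over the mean of the regions, at 0.24 (adjusted p = 1). Nox4, an NADPH oxidase, had a log2 difference of 0.67 in CA (unadjusted p = 0.0148) and of -0.49 in CT (unadjusted p = 0.0401). Their medians were -0.0496 in CA, -0.0456 in DG and -0.10 in CT. In the list of heme and metal handling (19 genes measured), with medians of 0.03 in CA, -0.10 in DG and -0.03 in CT, Cpox, an enzyme of heme synthesis, was the member with the lowest p over the mean of the 3 regions. In CA, Cpox had 21.1, 30.7 and 24.9 with BuOE and 36.9, 45.7 and 35.6 with saline. In DG it had 26.7, 26.3 and 28.9 with BuOE and 37.3, 34.4 and 38.0 with saline. In CT it had 20.6, 33.4 and 28.5 with BuOE and 34.0, 37.5 and 31.7 with saline. The GC-BuOE values were wholly below the GC-SAL values in CA and DG, and 1 GC-BuOE mouse overlapped them in CT. The log2 difference of Cpox over the 3 regions was -0.45 (95% interval -0.72 to -0.19, unadjusted p = 0.00112, adjusted p = 0.981 by limma), and in FCT, frontal cortex of the same mice, it was 0.12. The nuclear-encoded genes of oxidative phosphorylation had medians of -0.014 in CA, 0.0059 in DG and 0.024 in CT over 32 genes.

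Inflammatory and stress lists held up to 3 members in a region at an unadjusted p below 0.05. The NF-kB list (20 genes measured) had medians of -0.05 in CA, -0.03 in DG and -0.023 in CT, and Tnf, an inflammatory cytokine, had a log2 difference of -0.69 in CT at 1.77 times the negative control (adjusted p = 1). At an unadjusted p below 0.05, 1 member was lower in each of CA, DG and CT, against 2.88%, 2.97% and 2% of all genes. Nfkbia, named after its values were seen, was higher in DG, at 0.62 (unadjusted p = 0.0283 by limma). The interferon list (13 genes) had medians of -0.016, -0.08 and 0.10, and Stat2, a signal transducer of interferon, had -0.36 over the mean of the 3 regions (unadjusted p = 0.0238). The glucocorticoid list (18 genes) had medians of -0.0068 in CA, 0.14 in DG and 0.0248 in CT. At an unadjusted p below 0.05, 1 member was higher in CA and 1 was lower in CT, against 2.72% and 2% of all genes. In DG, 14 of 18 differences were above 0, against 46.9% of all genes in DG. There, 3 members were higher at that p, against 2.24% of all genes. One of them was Klf9, a transcription factor that glucocorticoids induce, with 97.8, 100.1 and 100.1 in DG with BuOE and 49.7, 80.1 and 79.1 with saline. Its groups did not overlap in DG, where the log2 difference was 0.54 (95% interval 0.22 to 0.86, adjusted p = 0.733), and it was -0.013 in CA and 0.23 in CT. Junb, an immediate early gene, had 56.7, 56.3 and 55.6 in DG with BuOE and 34.5, 39.1 and 39.0 with saline. The log2 difference of Junb was 0.57 in DG (adjusted p = 0.755), 0.20 in CA and -0.015 in CT. The 26 immediate early genes had medians of 0.0958 in CA, -0.01 in DG and -0.0734 in CT. In CA, 3 of them were higher and 0 lower at an unadjusted p below 0.05, against 2.72% and 2.88% of all genes. The clock genes Per3 and Dbp, both driven by the core clock, had log2 differences of -0.31 and -0.29 over the mean of the 3 regions (unadjusted p = 0.00877 and 0.0246), while the median of the 21 clock genes was 0.0037. Other clock genes went the other way in 1 region, named after their values were seen. Per1 had 0.41 in CA and Npas2 0.38 in CT (unadjusted p = 0.0264 and 0.0324 by limma). In FCT of the same mice the log2 difference of Per3 was -0.91 (adjusted p = 0.115), and that of Dbp was 0.19.

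The medians of the other stress lists over the mean of the 3 regions lay between -0.0174 for the p53 list and 0.0628 for the cold-inducible RNA-binding proteins. For the latter, 4 genes, the median was 0.26 in CT, where Rbm3 had a log2 difference of 0.40 (unadjusted p = 0.0205), and the medians in CA and DG were 0.03 and -0.0009. Cirbp, of the same list, differed the other way in DG, with 33.4, 28.8 and 32.2 with BuOE and 41.4, 43.8 and 40.02 with saline, a log2 difference of -0.40 (unadjusted p = 0.0304). Chordc1, a chaperone partner of HSP90, had 0.36 over the mean of the 3 regions (unadjusted p = 0.00916, adjusted p = 1), beside a median of 0.0238 for the 19 heat shock genes. The lists of hypoxia targets, of the unfolded protein response and of ribosomal proteins had medians of 0.0194, 0.0445 and 0.0354. The ribosomal list had 26 of 33 differences above 0 in DG and 27 of 33 in CT, but 16 of 33 in CA. Of all genes, 46.9% in DG, 49.3% in CT and 48.7% in CA had differences above 0.

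Neuronal lists gave single genes as well. The 29 measured receptor subunits of glutamate and GABA had medians of 0.05 in CA, 0.016 in DG and 0.012 in CT. Adcyap1, the precursor of the neuropeptide PACAP, had log2 differences of -0.76 in DG and -0.61 in CT but 0.14 in CA, at 1.3 and 1.64 times the negative control in DG and CT. Fdft1, squalene synthase, had log2 differences of -0.42 in CA, -0.52 in DG and -0.25 in CT and -0.40 over the mean (unadjusted p = 0.00196, adjusted p = 1), beside a median of 0.0012 for the 17 genes of cholesterol synthesis. Dcx, a marker of immature neurons, had -0.34 over the mean (unadjusted p = 0.0283), with a list median of -0.0016. The list of synaptic vesicle genes had a median of 0.015 and that of neuropeptide precursors 0.0734.

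**Figure D3:**
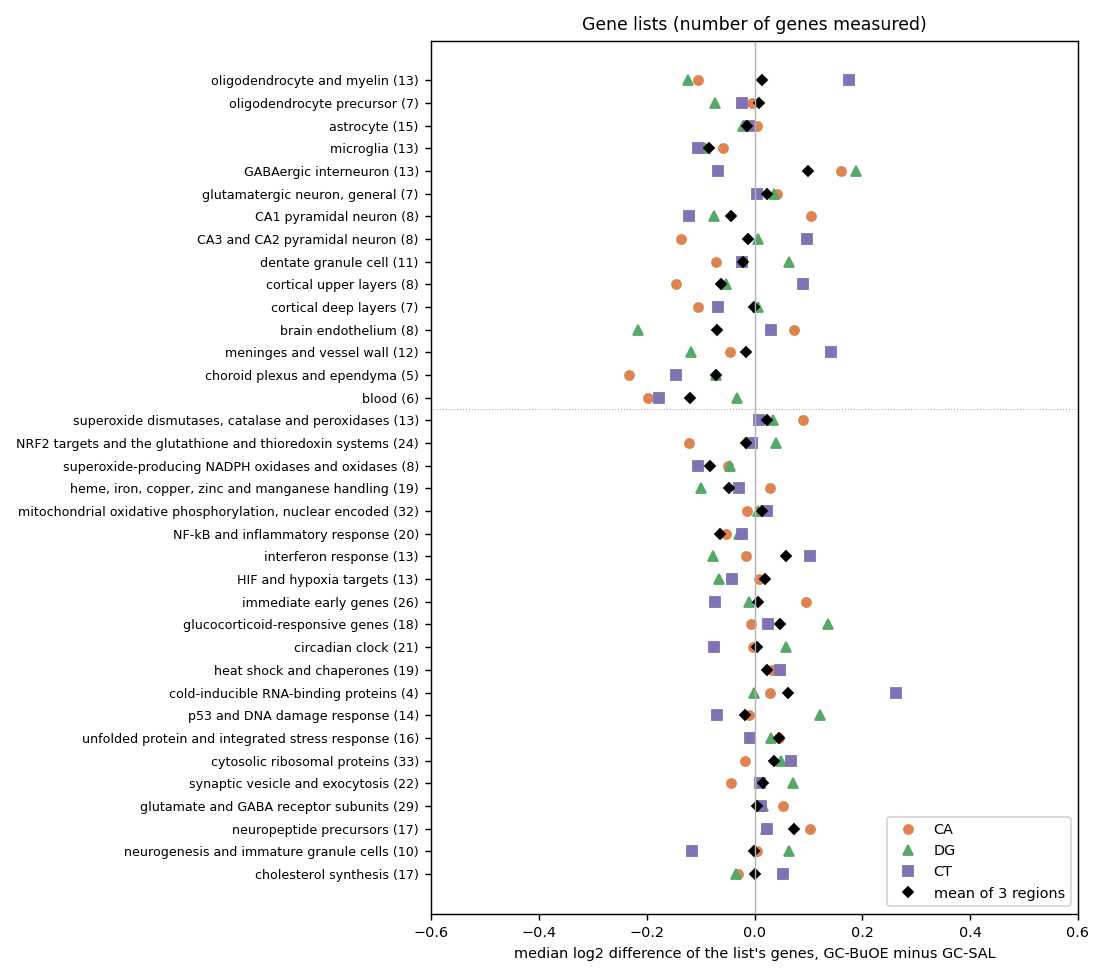
Each row is 1 of the 36 gene lists with its number of measured genes, cell type lists above the dotted line and pathway lists below, and the x axis is the median log2 difference of GC-BuOE minus GC-SAL over its genes. Symbols give CA, DG, CT and the mean of the 3 regions, and the medians over the mean of the regions lie between -0.12 and 0.099.

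Cell type lists were read in the same way, and in such AOIs fewer cells of a type and less RNA per cell cannot be told apart. The summed level of a list did not overlap between the groups for 3 of 36 lists in CA, 3 in DG and 3 in CT, which is 8.33% of the lists in each region. Of all genes, 9.55% in CA, 9.76% in DG and 8.2% in CT did not overlap in either direction, so the share of lists lay near that of genes, and the sums below are given as values. The 9 were the microglial, choroid plexus and interferon lists in CA (lower), the myelin and oligodendrocyte precursor lists (lower) and the GABAergic list (higher) in DG, and the myelin, NRF2 and ribosomal lists in CT (higher). The myelin and oligodendrocyte genes (13 of 15 measured) differed in opposite directions between regions. In DG their sum was 606, 615 and 566 in GC-BuOE mice 1, 2 and 3 and 653, 698 and 641 in GC-SAL mice. In CT it was 1004, 1135 and 1228 in GC-BuOE and 884, 949 and 927 in GC-SAL. In CA it was 664, 650 and 679 in GC-BuOE and 647, 722 and 633 in GC-SAL. The sum with BuOE was therefore wholly lower in DG, wholly higher in CT and overlapping in CA, and the median log2 differences of the list were -0.12, 0.18 and -0.11.

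In CT the AOI of GC-SAL mouse 1, with the fewest nuclei, had the lowest sum of the myelin list, 884. The sums of GC-SAL mice 2 and 3, 949 and 927, also lay below those of the GC-BuOE mice, 1004 to 1228. The part of this AOI in the size of the difference was not tested. In FCT of the same mice the sum was 858, 673 and 1185 with BuOE and 1252, 1435 and 1231 with saline, wholly lower, as in DG.

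The GABAergic interneuron genes (13 of 14 measured) had the highest median of all lists in CA and DG, at 0.16 and 0.19, and -0.07 in CT. In DG their sum was 500.3, 528 and 463 with BuOE and 385, 444 and 405 with saline, with no overlap, and 12 of 13 differences were above 0, against 46.9% of all genes in DG. Cnr1, the cannabinoid receptor of a class of interneurons, had 60.0, 48.8 and 66.7 in DG with BuOE and 29.0, 55.9 and 27.0 with saline. The groups overlapped in GC-SAL mouse 2, and the log2 difference of Cnr1 in DG was 0.70 (unadjusted p = 0.00357, adjusted p = 0.786). In CT the sums of the list were 566, 600.3 and 601 with BuOE and 531, 789 and 573 with saline, which overlapped.

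**Figure D4:**
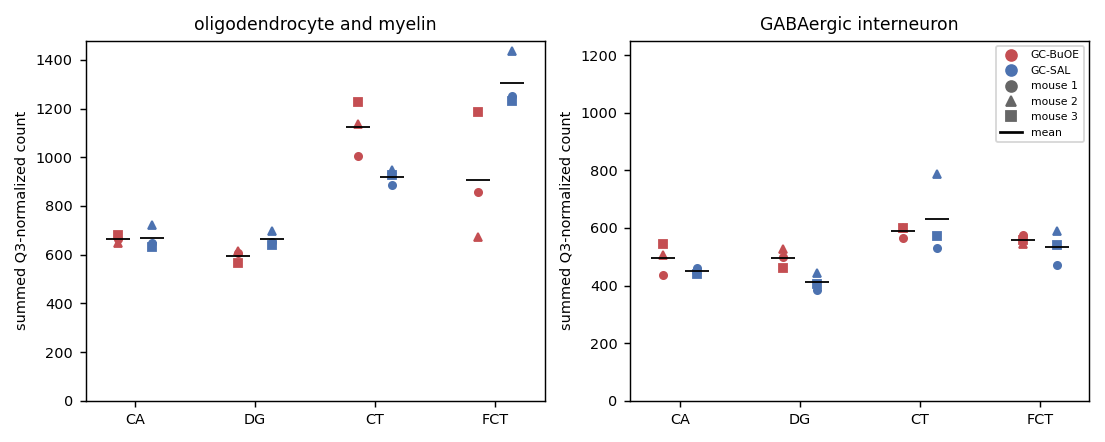
The summed Q3-normalized count of the myelin and oligodendrocyte list and of the GABAergic interneuron list (y axes) is plotted for every AOI of GC-BuOE (red) and GC-SAL (blue) in CA, DG, CT and FCT, with a symbol for each mouse and a bar at the mean. The myelin sum with BuOE is below saline in DG and FCT and above it in CT.

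Microglial genes (13 of 15 measured) had medians of -0.06 in CA, -0.09 in DG and -0.10 in CT, and their sum was wholly lower with BuOE in CA, at 367 to 386 against 390 to 402. Astrocyte genes (15 measured) had medians of 0.0052, -0.0225 and -0.0113, and Gfap, whose protein was stained to guide the choice of AOIs, had log2 differences of -0.14, -0.0225 and -0.18. At an unadjusted p below 0.05 by limma, 2 astrocyte genes were lower in CA, 0 in DG and 2 in CT, and 0 were higher. Of all genes, 2.88% in CA, 2.97% in DG and 2% in CT were lower at that p. The endothelial list (8 of 11 measured) had medians of 0.07 in CA, -0.22 in DG and 0.03 in CT. In DG, 0 of its 8 differences were above 0, against 46.9% of all genes. Lists of CA1 neurons, of granule cells and of upper cortical layers had medians of 0.10 in CA, 0.06 in DG and 0.09 in CT, each in its own region. Over the mean of the 3 regions, the lists of oligodendrocyte precursors, general glutamatergic neurons, CA3 and CA2 neurons, deep cortical layers, and meninges and vessel wall had medians of 0.008, 0.0235, -0.012, -0.0015 and -0.0155. Choroid plexus and blood genes had medians of -0.0713 and -0.12 over the mean of the 3 regions, with 5 and 6 genes measured, and their part in the other values was not tested.

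The genes with the lowest unadjusted p, 5 in each direction and region, were then read as values. All 30 missed the adjusted test, and 15 of them lay under 2 times the negative control on average. The groups did not overlap for 26 of the 30, which the choice by p itself favours. In CA, Gid4, a substrate receptor of a ubiquitin ligase, had 54.8, 44.0 and 34.6 with BuOE and 20.0, 19.1 and 22.2 with saline. That was a log2 difference of 1.06 (95% interval 0.56 to 1.57, adjusted p = 0.328), from raw counts of 10 to 33, and the differences of Gid4 in DG and CT were -0.14 and 0.17. Amotl2, an angiomotin that acts at cell junctions, had 50.6, 34.7 and 30.3 with BuOE and 20.0, 19.1 and 10.4 with saline in CA, a log2 difference of 1.20 (adjusted p = 0.328), with 0.097 in DG and 0.15 in CT. Pcx, pyruvate carboxylase, had a log2 difference of 1.01 in CA and of -0.48 in DG.

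Lama2, a laminin chain of basement membranes, had 8.43, 17.3 and 23.8 with BuOE and 38.5, 30.5 and 43.0 with saline in CA. It had the lowest p of the region, 4.9e-05, with a log2 difference of -1.22 (95% interval -1.79 to -0.66, adjusted p = 0.328). In DG and CT its differences were 0.46 and 0.43, in the opposite direction. Spata7, Olfr1246, Olfr403 and Dmtf1 followed among the lower genes of CA, with log2 differences of -1.36, -1.07, -0.94 and -0.76. Olfr1246 and Olfr403, annotated as olfactory receptors, lay at 1.33 and 1.65 times the negative control. Elof1 and Tectb, the other two of the higher genes in CA, are described with the single-AOI values below.

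In DG, Prepl, a serine peptidase-like enzyme, had 55.6, 52.5 and 60.0 with BuOE and 26.2, 40.02 and 33.0 with saline. Its log2 difference was 0.76 (95% interval 0.39 to 1.13, adjusted p = 0.733), and it was 0.44 in CT (unadjusted p = 0.00995) but -0.41 in CA (unadjusted p = 0.032). Trpc4, a cation channel, had 32.2, 38.8 and 31.1 with BuOE and 6.90, 17.7 and 31.0 with saline, so that GC-SAL mouse 3 lay next to GC-BuOE. Its log2 difference in DG was 1.06, with 0.092 in CA and -0.27 in CT. Crygc, 1700020A23Rik and Nudcd3 completed the higher genes of DG, with log2 differences of 0.97, 0.99 and 0.69. Among the lower genes, Mfsd2a, a lipid transporter of the blood-brain barrier, had 28.9, 21.3 and 18.9 with BuOE and 44.2, 52.1 and 33.0 with saline, a log2 difference of -0.87 (adjusted p = 0.733), against 0.052 in CA and 0.057 in CT. Angel2 and Cyp11a1, the latter the first enzyme of steroid synthesis, had -0.81 and -0.85.

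In CT, Wdr24, a subunit of the GATOR2 complex that acts on mTORC1, had 35.5, 34.7 and 29.2 with BuOE and 14.6, 18.4 and 18.6 with saline. The log2 difference was 0.91 (95% interval 0.49 to 1.33, adjusted p = 0.518). It was also 0.71 in CA (unadjusted p = 0.00694), where the groups did not overlap either, and -0.0062 in DG. Gm9936 had 28.6, 21.4 and 25.4 with BuOE and 3.64, 10.2 and 19.6 with saline in CT, from as few as 3 counts, and the log2 differences were 1.35 in CT and -0.54 in CA. Rbbp9, Ptprk and Gsn followed, with log2 differences of 0.79, 0.57 and 0.71. Slc14a1, a urea transporter of astrocytes, had 27.4, 30.7 and 40.02 with BuOE and 70.3, 48.3 and 44.7 with saline in CT. Its log2 difference was -0.71 in CT (adjusted p = 1), -0.57 in CA (unadjusted p = 0.0086) and 0.022 in DG. Olfr273, Acsm5, Cnot9 and Shoc1 had -0.88, -1.04, -0.68 and -0.89. Of all 30 genes, 5 had the same direction at an unadjusted p below 0.05 in another of the 3 regions, and 3 had the opposite direction at that p.

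**Figure D5:**
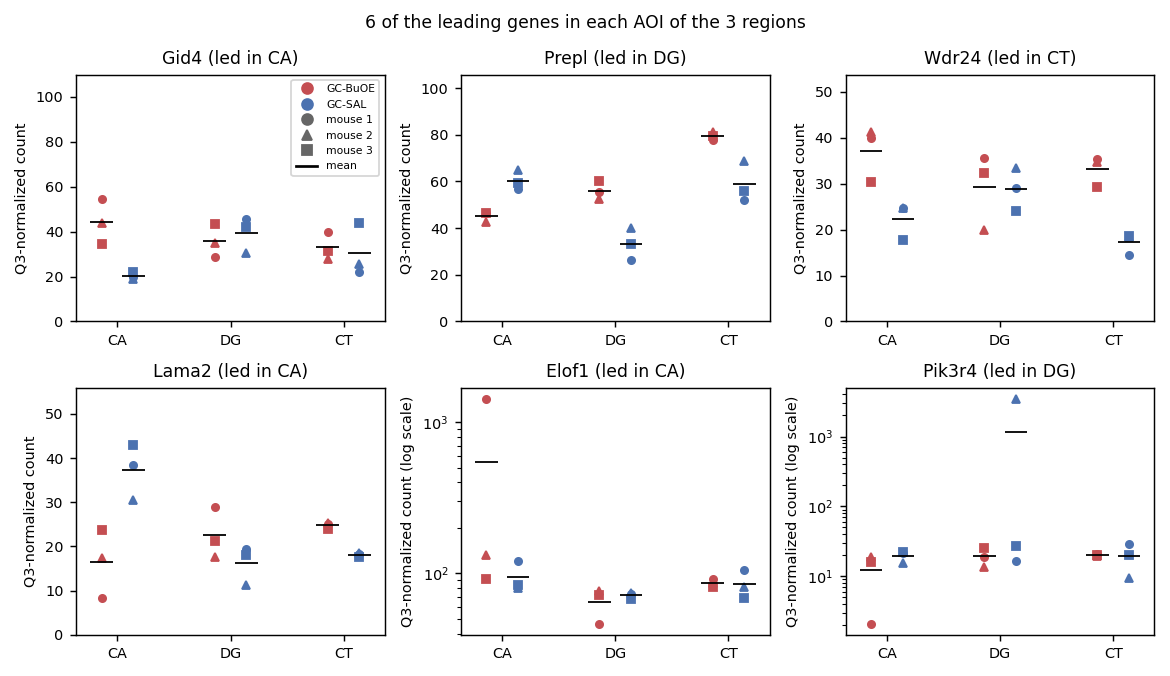
Each panel plots 1 gene, with the Q3-normalized count (y axis, logarithmic for Elof1 and Pik3r4) of every AOI in CA, DG and CT, GC-BuOE in red and GC-SAL in blue, a symbol for each mouse and a bar at the mean. Gid4, Prepl, Wdr24 and Lama2 separate the groups in the region where they led and not in the same way in all 3 regions, and for Elof1 and Pik3r4 1 AOI lies far above the rest.

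The widest differences in CA and DG came from values of 1 AOI, a pattern noticed after the values were seen. In 9 genes, 1 of the 6 AOIs of a region lay above 5 times each of the others. Pik3r4, a regulatory subunit of a lipid kinase of autophagy, had 18.9, 13.8 and 25.6 in DG with BuOE and 16.6, 3437 and 27.0 with saline. The value of GC-SAL mouse 2 rested on 3693 counts against 11 to 27 in the other AOIs, while the same mouse had 15.2 in CA and 9.53 in CT. The log2 difference of Pik3r4 in DG was -2.59 (95% interval -3.97 to -1.20, adjusted p = 0.733), and -0.16 without that mouse. Khnyn, an RNA-binding protein with a nuclease domain, had 199 in the same AOI and 15.01 to 36.02 in the other 5, and its log2 difference in DG was -1.42, or -0.55 without that mouse.

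In CA, GC-BuOE mouse 1 held 3 such genes. Elof1, a transcription elongation factor, had 1422, 132 and 92.0 with BuOE and 122, 80.1 and 84.5 with saline, and its log2 difference was 1.46, or 0.23 without that mouse. Tectb had 527, 28.0 and 31.4 with BuOE and 20.8 to 29.3 with saline, and its log2 difference was 1.59, or 0.22 without that mouse. Lyrm7 had 394 in the same AOI and 26.2 to 41.4 in the other 5. That AOI had the lowest depth of all, 322629 counts. All 11 genes that edgeR called in CA and DG had 1 AOI at 2.36 to 127 times the next highest one, 7 of them were among the 9 genes above, and the groups overlapped in all 11. The remaining 4 were Olfr1058 and Slc6a2 in CA and Rgs19 and Ndufb2 in DG.

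Shifts that agree across the regions were tested on the mean of CA, DG and CT of each mouse. limma called 0 genes (0%), with 271 higher (1.72%) and 394 lower (2.5%) at an unadjusted p below 0.05. edgeR, on counts summed per mouse, called 2 genes, Pik3r4 and Khnyn, with 539 at that p. The median half-width of the 95% interval was 0.27 on the log2 scale, and the interval lay within 1.5-fold for 15091 genes (95.6%). A difference beyond 1.5-fold in the Q3-normalized value that was shared by the 3 regions was thus outside the interval for most genes. For genes near the negative control this does not bound the fold of the transcript, since the values still hold the background. Pik3r4 and Khnyn had the lowest p, with adjusted p = 0.116 and 0.448. Their log2 differences over the mean of the 3 regions were -1.15 and -0.65, and without GC-SAL mouse 2 they were -0.54 and -0.42. In CA, Pik3r4 lay at 0.832 times the negative control, with 1 count in GC-BuOE mouse 1. With all mice, its log2 difference was -1.01 in CA and 0.15 in CT, and that of Khnyn was -0.46 in CA and -0.06 in CT.

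The higher genes with the lowest p over the mean, chosen after their values were seen, were Wdr24, Rbbp9, Plrg1, Fpr-rs4 and Sfxn5. Plrg1, a splicing factor, had log2 differences of 0.59 in CA, 0.71 in DG and 0.40 in CT, and 0.57 over the mean (95% interval 0.26 to 0.88, adjusted p = 0.981). Sfxn5, a mitochondrial carrier, had 0.51, 0.49 and 0.24, and 0.41 over the mean (adjusted p = 0.981). Among the lower genes, Fscn3 had -0.45, -0.69 and -0.52, Acvr2b, an activin receptor, had -0.22, -0.89 and -0.53, and Sgsh, a lysosomal sulfatase, had -0.81, -0.68 and -0.23. In FCT of the same mice, the log2 differences of Plrg1, Sfxn5, Fscn3, Acvr2b and Sgsh were -0.0019, 0.025, 0.28, -0.068 and 0.30.

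At an unadjusted p below 0.05, 20 genes were higher in 2 or more regions (0.127%), 32 were lower in 2 or more (0.203%), and 46 were higher in one region and lower in another. None was under that p in the same direction in all 3 regions. The groups did not overlap in each of the 3 regions for 1 gene that was higher (0.00634%) and 2 that were lower (0.0127%). The higher gene was Cbx3, a heterochromatin protein, with 62.7 to 65.4 in CA, 63.4 to 70.0 in DG and 68.6 to 70.0 in CT with BuOE. With saline Cbx3 had 48.9 to 50.8 in CA, 57.7 to 62.1 in DG and 51.2 to 64.3 in CT. Its log2 differences were 0.37, 0.16 and 0.26 (mean 0.26, unadjusted p = 0.018, adjusted p = 1). The lower genes were Usp37, a deubiquitinase, with a mean log2 difference of -0.45, and Olfr347, at 1.03 times the negative control in CA, with -0.54. In FCT of the same mice, Cbx3, Usp37 and Olfr347 had 0.04, -0.20 and 0.12, and their groups overlapped.

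Whether the difference between GC-BuOE and GC-SAL itself differed between regions was tested on the within-mouse differences, without a fold threshold. limma called 0 genes for DG minus CA (0%), for CT minus CA and for CT minus DG, with 880, 843 and 834 at an unadjusted p below 0.05. The lowest adjusted p was 0.42, for Olfr1246 in CT minus CA. The opposite directions of Prepl and Lama2 are therefore given as values only. Lists were not tested between regions, so the opposite directions of the myelin list are given as values as well.

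The ground difference was set against the flight difference (FLT-BuOE minus FLT-SAL) over the same mean of 3 regions, also without a fold threshold. limma called 0 genes (0%), with 937 at an unadjusted p below 0.05, and the smallest adjusted p was 0.0684, shared by 7 genes. Among these, Itga7, a laminin-binding integrin, had a log2 difference of 0.16 on the ground and of -0.73 in flight. Klrg2 had -0.20 on the ground and 0.55 in flight. These 2 genes were named after their values were seen.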

How the data were processed

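RNA was measured with GeoMx digital spatial profiling. Reads were turned by the authors into deposited counts, 1 deduplicated count per probe and AOI, with the GeoMx NGS Pipeline (version 2.3.4 per the file headers). They scaled each AOI by its upper quartile and deposited this Q3-normalized signal for 15782 genes, 1 table per region. This scaling sets the AOIs to the same upper quartile and leaves the background in the values. Deposited tables of the authors' own comparisons hold fold changes and p-values and were not used. A genome build is not given in the sources used here, so no coordinates are printed.

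The members and lists were chosen with earlier results of these data known. limma (version 3.58.1) was fitted to log2(value + 1) with the 4 groups of 3 mice of a region, with the prior variance following the level of the genes, and p-values were adjusted by the Benjamini-Hochberg method across the whole table. The same fit took mouse means over CA, DG and CT, and within-mouse differences. The 3-against-3 design cannot give an exact permutation p below 0.1, so no such test is printed. edgeR (version 4.0.16) and DESeq2 (version 1.42.0) used 15777 genes matched to 1 probe by their counts (within 0.02 of a whole count). Intervals cover the spread between mice. The fits were also run on simulated data with changes of 2-fold or more and no effect of slide. Those runs do not show how differences near 1.5-fold are detected. The named genes are the 5 with the lowest p per direction and region, Sod1, Sod2, Sod3, Cat, Gpx1, Hmox1 and Nqo1, and up to 4 members of a list with the lowest p over the 3 regions, and the text says where others were named after their values were seen. Alternatives were another pseudocount, filter, scaling, block and tool, and each mouse left out.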

Additional observations from a re-analysis of the deposited data

Results flagged for a closer look

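In FCT, frontal cortex of the same mice and outside the comparisons in CA, DG and CT, 1 gene passed the test. Cacna2d3, an auxiliary subunit of voltage-gated calcium channels, had 73.6, 48.2 and 56.4 Q3-normalized counts in GC-BuOE mice 1, 2 and 3 and 14.8, 22.8 and 35.3 in GC-SAL mice. Its log2 difference was 1.32 (limma, adjusted p = 0.0184), and it was higher in each GC-BuOE mouse than in any GC-SAL mouse. It was singled out because FCT lies outside the regions compared in the report, which gives FCT values of some genes and lists only beside those of CA, DG and CT. In CA, DG and CT of the same mice its log2 differences were -0.06, 0.36 and -0.17. Summed levels in FCT were wholly higher with BuOE for 5 of the 36 lists and wholly lower for 2, while 29 overlapped. Of all 15782 genes in FCT, 938 were wholly higher and 767 wholly lower, and the lists are named as values only. The higher lists were general glutamatergic neurons, upper cortical layers, oxidative phosphorylation, synaptic vesicle genes and receptor subunits. The lower lists were myelin, and meninges and vessel wall. The part of these differences in that of Cacna2d3 was not tested, and edgeR and DESeq2 were not run on FCT.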

How the results depend on the processing

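Over 70 recomputed counts of called genes, 57 were 0. In CA, limma called 0 to 6 genes when 1 mouse was left out, with 2 without GC-BuOE replicate 2 and 6 without GC-BuOE replicate 3, and edgeR's quasi-likelihood test called 6. In DG the counts were 0 to 3 when 1 mouse was left out, with 3 without GC-SAL replicate 1 and 3 without GC-SAL replicate 3, and edgeR called 5. In CT they were 0 to 1, with 1 without GC-SAL replicate 3. For the mean of the 3 regions they were 0 to 1, with 1 without GC-SAL replicate 1 and 1 without GC-SAL replicate 3, edgeR called 2 genes, and the fit with a replicate block called 1, Pik3r4. For flight against ground they were 0 to 4, with 4 without GC-BuOE replicate 1 and 1 without GC-BuOE replicate 3. Same-numbered mice of the 2 groups are different animals, and the main fits did not pair them. Their deviations correlated at -0.0038 to 0.0941, against -0.0857 to 0.0334 for mice of unlike number. Over the mean of the 3 regions these ranges were 0.0447 to 0.0552 and -0.0402 to -0.0108, and the source of this lean was not tested. The replicate block changed no count in CA, DG or CT. Leaving out a mouse changes the samples and the spread, and beyond that the cause of each moved count was not tested. The other counts stayed at 0, under a pseudocount of 5, a filter on genes near the negative control, subtraction of the negative control, TMM scaling, the 6 ground mice alone, DESeq2 in the 3 regions, and a random block for the mouse over 36 AOIs, each where it was run. Directions of the leading genes held in all 434 recomputed values, which their choice by the lowest p in these same data favours, so this is no measure of robustness. Directions of the antioxidant genes, which were not chosen by p, differed in 38 of 332. The medians of lists had another sign in 81 of 504 recomputed values and moved by more than the spread between replicates in 53.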
